A study of Mus musculus with 168 samples.

Results

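The comparison described here is of messenger RNA in the cortex of 10-month-old Q175 mice with that of 10-month-old wild-type (WT) mice, 16 of the 168 libraries of a study of Huntington's disease knock-in mice. The libraries were taken by their labels: 8 are titled as heterozygous Q175 at 10 months and 8 as WT at 10 months, each group with 4 females and 4 males. Q175 mice carry a knocked-in Huntington's disease allele with a nominal 175 CAG repeats on 1 copy of Htt and a normal mouse copy on the other, and the WT mice carry no knocked-in allele. All mice were C57BL/6. The Q175 mice had been housed with Q175 mice and the WT mice with Q20 mice, which carry a 20-repeat allele, so that housing and genotype cannot be told apart in any result below. The same 2 genotypes at 2 and 6 months, and 5 further alleles at 10 months, are used only for the closing comparisons.

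Huntingtin is a large protein of vesicle transport, and in Huntington's disease the CAG repeat near the start of its gene is lengthened, so that the protein carries a longer run of glutamines. The projection neurons of the striatum are the cells known to be lost first, and the cortex, which sends glutamate-releasing axons to them, is affected as well. In the striatum of patients and mouse models, genes of dopamine and cyclic AMP signalling, neuropeptides and ion channels are known for reduced expression. The cortical tissue sampled here holds excitatory projection neurons arranged in layers, inhibitory interneurons, astrocytes, oligodendrocytes, microglia and vessels. In such bulk tissue, fewer cells of a type and less RNA per cell cannot be told apart.

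The stretch of the gene that the knock-in alters is shown first, because it holds the repeat that is longer in the knocked-in allele. It is the reference coding sequence of mouse Htt from the start codon through codon 30, from GENCODE M21 on build GRCm38 (chr5:34761907-34761996, plus strand, in exon 1 and before the end of that exon), with the run of glutamine codons in capitals.
Htt: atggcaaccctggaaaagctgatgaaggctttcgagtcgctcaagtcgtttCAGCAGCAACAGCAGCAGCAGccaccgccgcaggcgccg
The normal mouse gene thus holds 7 glutamine codons in a row, from codon 18, of which 6 are CAG and 1 is CAA, against a nominal 175 CAG repeats in the knocked-in allele. The sequence is that of the reference strain and was not read from these libraries, and the counts per gene do not separate the 2 alleles of a Q175 mouse. As the WT mice carry no knocked-in allele, repeat length and the presence of that allele cannot be told apart in this comparison.

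Htt itself was lower in Q175 cortex. Its level, in CPM (estimated counts scaled to a common library size), was 133 to 168 CPM in Q175 cortices (median 160.2) and 186 to 206 CPM in WT cortices (median 197). Every Q175 library lay below every WT library, and the lowest Q175 library, male 2, stood apart from the other 7. Group means were 158 ± 11.1 CPM in Q175 and 196 ± 7.52 CPM in WT (SD, n = 8 each), a log2 difference, Q175 minus WT, of -0.31 ± 0.04 (SE, as after each log2 difference below) with an adjusted p of 5.56e-06 in edgeR's quasi-likelihood test. Of the other 21 genes in a list of huntingtin and its partners, Kif5c, a kinesin heavy chain that moves vesicles along microtubules, was also lower (log2 difference -0.15 ± 0.02, adjusted p = 0.00012), as were the small GTPase Rasd2 (-0.38) and the endocytosis protein Pacsin1 (-0.12). Optn, an autophagy receptor that binds huntingtin, was higher (log2 difference 0.20 ± 0.04, adjusted p = 0.00286), and the recycling-vesicle GTPase Rab11a was higher by 0.10. The other 16 partners did not pass the threshold. With Htt, 27.3% of the 22 listed genes were called, against 14.7% of all tested genes.

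The plot of levels by library shows Htt beside genes described below.

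**Figure D1:**
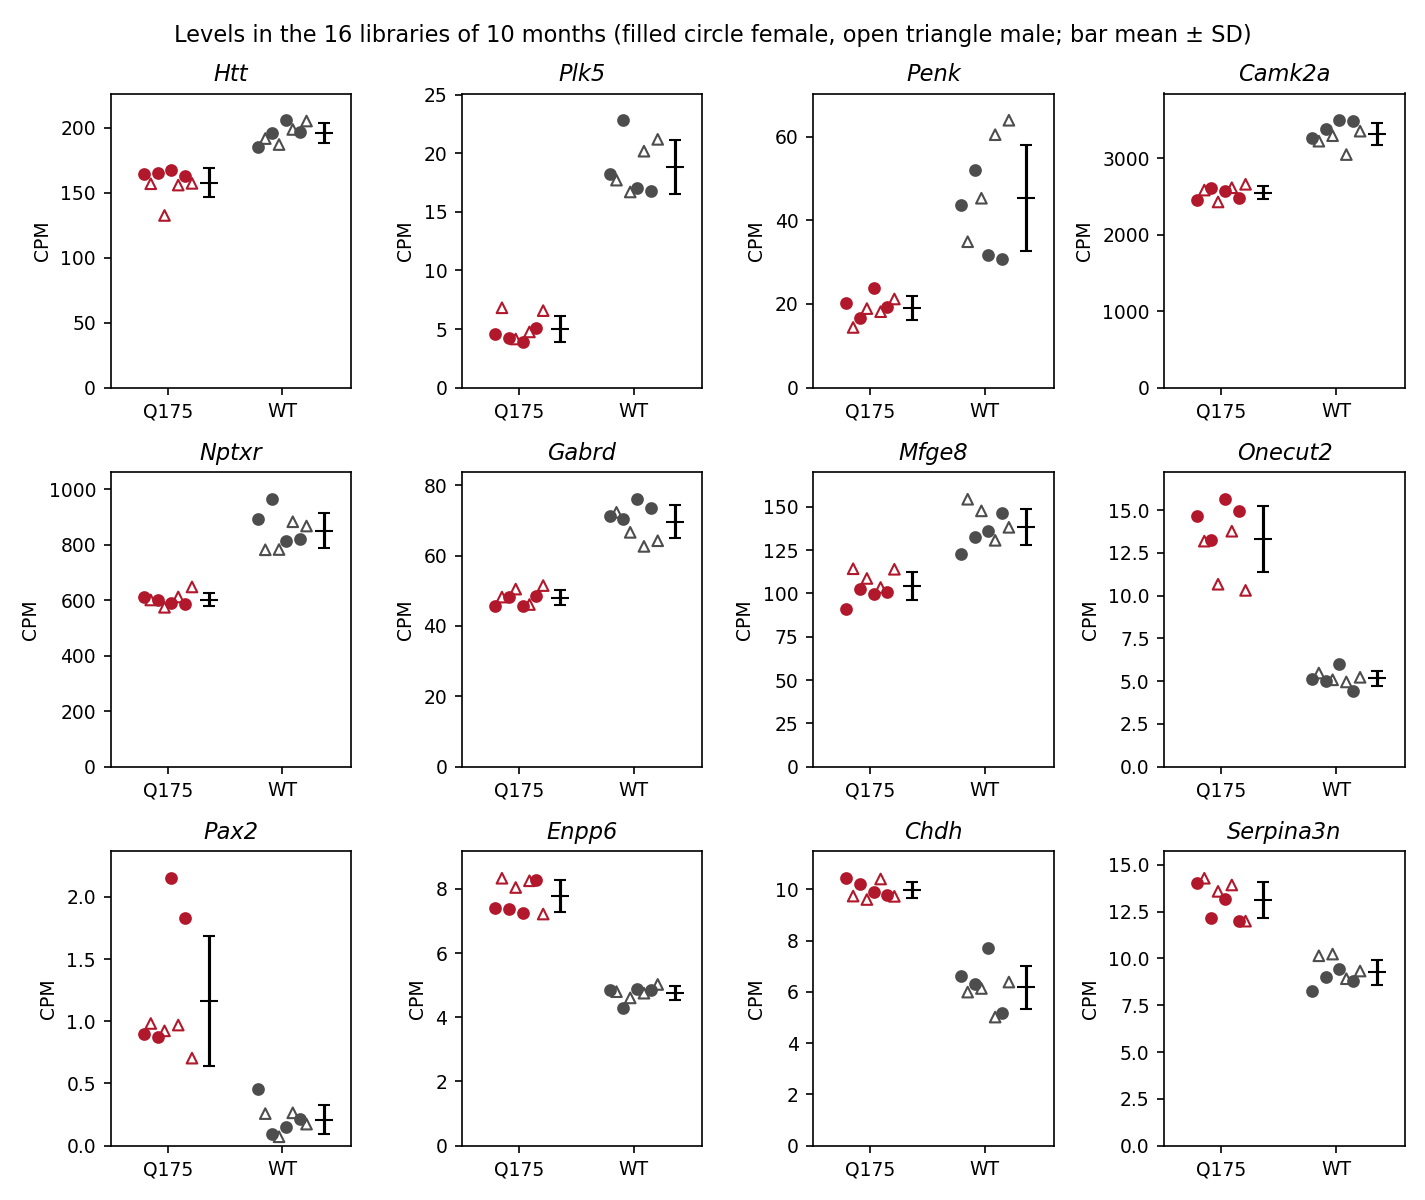
CPM of 12 genes in the 8 Q175 libraries (left in each panel) and the 8 WT libraries (right) of 10 months, with the mean and SD of each group as a bar at its right. In all 12 genes the libraries of the 2 genotypes do not overlap, as for Plk5, at 3.86 to 6.82 CPM in Q175 and 16.7 to 22.8 CPM in WT.

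Across the transcriptome, differences were many and mostly small, and the larger ones were more often losses. Of 16410 genes with enough counts to test, 2414 passed the adjusted threshold of 0.05 (14.7%), 1065 of them higher in Q175 cortex (6.49%) and 1349 lower (8.22%). Among the genes called higher, 79.2% differed by less than 1.2-fold and 10 by more than 2-fold; among those called lower, 59.8% differed by less than 1.2-fold and 38 by more than 2-fold. In 457 genes (2.78%) the 8 Q175 and 8 WT libraries did not overlap at all, with Q175 above WT in 159 (0.969%) and below it in 298 (1.82%). The median difference of all tested genes was 0.003 on the log2 scale. The libraries were alike in depth, with 31526324 to 39046572 estimated counts in Q175 and 31430445 to 42468648 in WT, and in the share of mitochondrially encoded RNA, 9.94% to 11.7% in Q175 and 10.5% to 11.7% in WT.

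Library names carry a token of the letter L and a digit whose meaning the labels do not give, and of its values only L1, L2 and L8 occur in both groups, in 3 Q175 and 6 WT libraries. With that token as a term, 650 genes were called (3.96%), 177 higher (1.08%) and 473 lower (2.88%). Of 162 genes named below with a call, 63 were not called in that fit. Likewise 39 were not called with all 56 libraries of the age in the fit, and 31 without 3 WT libraries described below. A limma fit of the authors' FPKM values, as log2(FPKM + 0.1), in place of counts called 2618 genes, 1715 higher and 903 lower, and the median difference of all genes was 0.03 on that scale. The p-values measure the spread between these libraries, which the labels describe as separate samples. The labels do not say whether each came from 1 animal.

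**Figure D2:**
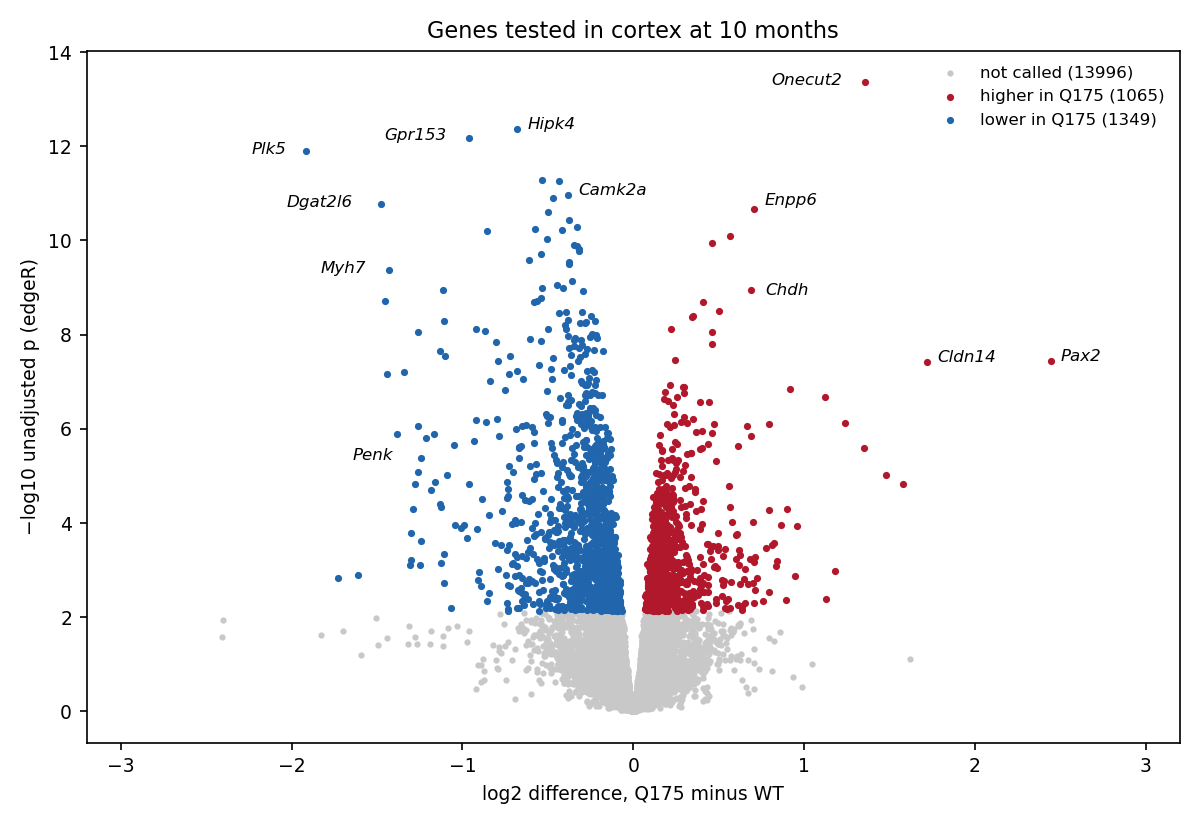
Each point is 1 of 16410 tested genes, with the log2 difference, Q175 minus WT at 10 months, on the x axis and the −log10 of the unadjusted p on the y axis. Red points are the 1065 genes called higher in Q175 and blue points the 1349 called lower, and of the genes called lower more lie beyond a log2 difference of 1 in size.

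The 15 genes lower in Q175 cortex with the smallest p included kinases, receptors and synaptic proteins. Plk5, a polo-like kinase family member expressed in brain, was at 3.86 to 6.82 CPM in Q175 cortices (median 4.66) and 16.7 to 22.8 CPM in WT cortices (median 18), and no Q175 library came near the WT range. Its mean in WT was 3.78 times that in Q175 (log2 difference -1.92 ± 0.11, adjusted p = 5.26e-09). Hipk4, a homeodomain-interacting protein kinase, was at 37.7 to 45.8 CPM in Q175 cortices (median 42) and 59.5 to 77 CPM in WT cortices (median 68.2), again without overlap (log2 difference -0.68 ± 0.04, adjusted p = 3.61e-09). Gpr153, an orphan G protein-coupled receptor, had 10.6 to 14 CPM in Q175 cortices (median 11.9) and 19.3 to 26.6 CPM in WT cortices (median 23.1), again without overlap (log2 difference -0.96 ± 0.06, adjusted p = 3.67e-09).

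Several of these 15 genes act at the receiving side of the excitatory synapse. Camk2a, the alpha subunit of the calcium/calmodulin-dependent kinase CaMKII, was at 2430.4 to 2662 CPM in Q175 cortices (median 2578) and 3050.3 to 3499 CPM in WT cortices (median 3326), with a log2 difference of -0.38 ± 0.03 (adjusted p = 2.5e-08). Its inhibitor Camk2n1 was at 1372 to 1667 CPM in Q175 cortices (median 1532) and 1950.0 to 2248 CPM in WT cortices (median 2199.9), with a log2 difference of -0.50 ± 0.04 (adjusted p = 8.38e-08). Nptxr, the neuronal pentraxin receptor that gathers AMPA-type glutamate receptors, was at 575 to 648.4 CPM in Q175 cortices (median 601) and 783 to 965 CPM in WT cortices (median 844), with a log2 difference of -0.50 ± 0.04 (adjusted p = 3.68e-08). Gsg1l, an auxiliary subunit of those receptors, differed by -0.47 ± 0.04, and Rasgrf2, a calcium-regulated activator of Ras, by -0.37 ± 0.03. In all 5 genes each Q175 library was below each WT library.

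Gabrd, the delta subunit of GABA-A receptors outside synapses, was at 45.6 to 51.5 CPM in Q175 and 62.6 to 76 CPM in WT (log2 difference -0.53 ± 0.04, adjusted p = 1.47e-08). The others of the 15 were the membrane-binding copine Cpne5 (-0.43 ± 0.03), the serine/threonine kinase Stk32c (-0.33 ± 0.03), the peptide receptor Gpr83 (-0.57 ± 0.05), the protein phosphatase inhibitor Ppp1r1a (-0.42 ± 0.03), the ankyrin-repeat gene Ankrd63 (-0.86 ± 0.07) and the acyltransferase relative Dgat2l6 (-1.48 ± 0.11). All 15 remained called in the same direction under each alternative fit tried.

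By size of change, genes averaging at least 1 CPM with the largest drops after Plk5 included the membrane transporter Slc4a11, at 0.459 to 0.87 CPM in Q175 cortices (median 0.583) and 1.45 to 2.22 CPM in WT cortices (median 1.65), with a log2 difference of -1.45 ± 0.15 (adjusted p = 8.38e-07). Otof, the calcium sensor otoferlin known from release at inner-ear hair cells, was at 14.1 to 17.8 CPM in Q175 cortices (median 15.9) and 29.1 to 49.5 CPM in WT cortices (median 36.4), with a log2 difference of -1.26 ± 0.11 (adjusted p = 2.41e-06). Myh7, the beta myosin heavy chain of slow muscle, was at 4.12 to 7.0 CPM in Q175 cortices (median 4.68) and 11.2 to 17.2 CPM in WT cortices (median 13.2), with a log2 difference of -1.43 ± 0.11 (adjusted p = 2.51e-07). The receptor phosphatase Ptprv differed by -1.34 ± 0.17. In these 4 genes the groups did not overlap. Capn11, a calpain protease, was called (log2 difference -1.73 ± 0.44, adjusted p = 0.0168), with overlapping libraries. They were at 0.158 to 1.41 CPM in Q175 and 0.189 to 3.35 CPM in WT. The gene was called neither with the L token nor with all genotypes of the age in the fit.

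Car12, a membrane carbonic anhydrase, was at 3.03 to 5.79 CPM in Q175 cortices (median 4.38) and 6.21 to 17.5 CPM in WT cortices (median 10.7), with a log2 difference of -1.29 ± 0.22 (adjusted p = 0.00156). Its 3 highest WT libraries, female 1, female 2 and male 1, were also the 3 with the most RNA of choroid plexus markers, a tissue beside the cortex. The summed level of 12 such markers was 262 to 737 CPM in those 3 libraries, against 12.5 to 101 CPM in the 8 Q175 libraries and 21.6 to 74.5 CPM in the other 5 WT libraries. Without these 3 libraries, left out after the data were seen, the log2 difference of Car12 was -0.90 (adjusted p = 0.0037), and with the L token it was not called. Without the 3 libraries 1507 genes were called over all, 558 higher and 949 lower. The part of choroid plexus RNA in other results was not tested beyond this fit.

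The 15 genes higher in Q175 cortex with the smallest p included transcription and chromatin factors, glial genes and secreted proteins. Onecut2, a homeodomain transcription factor, was at 10.3 to 15.6 CPM in Q175 cortices (median 13.5) and 4.41 to 5.99 CPM in WT cortices (median 5.1), so that the lowest Q175 library was well above the highest WT library (log2 difference 1.36 ± 0.08, adjusted p = 7.14e-10). Pax2, a paired-box factor of early brain patterning, was at 0.703 to 2.15 CPM in Q175 cortices (median 0.946) and 0.0716 to 0.452 CPM in WT cortices (median 0.195), with Q175 females 3 and 4 highest (log2 difference 2.44 ± 0.28, adjusted p = 6.56e-06). Polr2a, the core catalytic subunit of polymerase II, was at 88.7 to 103 CPM in Q175 cortices (median 94) and 69.5 to 79.3 CPM in WT cortices (median 75.2), with a log2 difference of 0.34 ± 0.04 (adjusted p = 1.46e-06). Pogz, a zinc-finger chromatin protein, differed by 0.22 ± 0.02. In none of these 4 genes did the groups overlap.

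Enpp6, a choline phosphodiesterase that marks newly forming oligodendrocytes, was at 7.22 to 8.33 CPM in Q175 cortices (median 7.73) and 4.28 to 5.02 CPM in WT cortices (median 4.82), with a log2 difference of 0.71 ± 0.06 (adjusted p = 3.61e-08). Chdh, choline dehydrogenase, was at 9.6 to 10.4 CPM in Q175 cortices (median 9.84) and 5.01 to 7.72 CPM in WT cortices (median 6.22), with a log2 difference of 0.69 ± 0.07 (adjusted p = 5.46e-07). The transporter Abca8a was at 20.2 to 23.4 CPM in Q175 cortices (median 22.1) and 12.9 to 16.6 CPM in WT cortices (median 14.7), with a log2 difference of 0.57 ± 0.05 (adjusted p = 7.77e-08). Plxnb3, a semaphorin receptor of oligodendrocytes, differed by 0.41 ± 0.04. None of these 4 overlapped between the groups. Of 13 tested markers of oligodendrocyte precursors and newly formed oligodendrocytes, Enpp6 alone was higher and 1 was lower. The share called was 15.4%, near the 14.7% of all genes, with a median log2 difference of -0.03 and 9 of the 13 below 0. The summed level of that list was 256 to 290 CPM in Q175 libraries and 257 to 288 CPM in WT libraries.

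Serpina3n, a secreted protease inhibitor known from reactive astrocytes, was at 12 to 14.3 CPM in Q175 cortices (median 13.4) and 8.25 to 10.2 CPM in WT cortices (median 9.16), without overlap (log2 difference 0.50 ± 0.05, adjusted p = 1.26e-06). Sfrp1, a secreted Wnt modulator, differed by 0.46 ± 0.05, the collagen Col12a1 by 0.46 ± 0.05, the axon-growth protein Dpysl3 by 0.35 ± 0.04, and the inositol pyrophosphate hydrolase Nudt4 by 0.24 ± 0.03. Cldn14, a tight-junction claudin, was low in both groups, at 0.634 to 1.2 CPM in Q175 cortices (median 0.891) and 0.126 to 0.454 CPM in WT cortices (median 0.295), with a log2 difference of 1.72 ± 0.21 (adjusted p = 6.73e-06). All 15 genes with the smallest p remained called in the same direction under each alternative fit tried.

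Slc45a3, a solute carrier, was at 0.96 to 1.79 CPM in Q175 and 0.462 to 0.903 CPM in WT (log2 difference 1.12 ± 0.15, adjusted p = 2.59e-05). Zfp503, a zinc-finger repressor, was at 2.47 to 5.12 CPM in Q175 and 1.45 to 2.25 CPM in WT (log2 difference 0.92 ± 0.12, adjusted p = 1.96e-05). The membrane serine protease Tmprss5 differed by 0.80 ± 0.12 and Met, the hepatocyte growth factor receptor, by 0.69 ± 0.10. Of these 4, in Met alone did the groups touch, by 1 WT library at 7.45 CPM against a lowest Q175 library of 7.44 CPM. Sspo, a secreted protein of the subcommissural organ, was called (log2 difference 0.89 ± 0.26, adjusted p = 0.0354), but 1 Q175 library, male 1, at 8.61 CPM, lay far above the other 7. The call held without Q175 male 1. It was lost in 9 of the 16 fits that leave out 1 library, and with the L token.

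Most listed genes of calcium and calmodulin signalling were lower in Q175 cortex. Of 34 listed genes, 22 were lower and none higher (64.7% called, against 14.7% of all tested genes), with a median log2 difference of -0.13, against 0.003 over all genes. With the L token as a term, 13 were lower. For this and each list below, the shares of all tested genes are 8.22% lower and 6.49% higher, and with the L token 2.88% lower and 1.08% higher. Beside Camk2a and Camk2n1, Camkk2, the kinase that activates CaM kinases, was at 208 to 236 CPM in Q175 cortices (median 213) and 251.2 to 302 CPM in WT cortices (median 281), with a log2 difference of -0.37 ± 0.03 (adjusted p = 1.94e-07). Itpka, an inositol trisphosphate kinase of dendritic spines, was at 86.1 to 114 CPM in Q175 cortices (median 100.1) and 131 to 149.8 CPM in WT cortices (median 136), with a log2 difference of -0.45 ± 0.04 (adjusted p = 4.94e-07). In these 2 genes the groups did not overlap. The ryanodine receptor Ryr1 differed by -0.68 ± 0.08, Camkk1 by -0.28 ± 0.05, the plasma membrane calcium pump Atp2b2 by -0.25 ± 0.04 and the calcineurin subunit Ppp3ca by -0.15 ± 0.02. The summed level of all 34 genes was 19427 to 20103 CPM in Q175 libraries (median 19808) and 21870.0 to 23370.0 CPM in WT libraries (median 22899), without overlap.

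In dopamine and cyclic AMP signalling, 11 of 35 tested genes were lower and 2 higher (37.1% called, against 14.7% of all genes), with a median of -0.13 (6 lower and 0 higher with the L token). Ppp1r1b, which encodes the phosphatase inhibitor DARPP-32, was at 43.3 to 63 CPM in Q175 cortices (median 47.9) and 71.6 to 93.7 CPM in WT cortices (median 81.8), without overlap (log2 difference -0.72 ± 0.07, adjusted p = 5.56e-06). Arpp21 was at 295 to 323 CPM in Q175 and 361 to 439.7 CPM in WT (log2 difference -0.37 ± 0.04, adjusted p = 5.42e-06). Arpp19 was at 259 to 292 CPM in Q175 and 307 to 365 CPM in WT (log2 difference -0.31 ± 0.03, adjusted p = 1.76e-06). Neither Arpp21 nor Arpp19 overlapped between the groups. Prkar1b, a regulatory subunit of protein kinase A, differed by -0.17 ± 0.03 and the phosphodiesterase Pde1b by -0.13 ± 0.04, while Prkacb, a catalytic subunit, was higher by 0.13 ± 0.03 and Pde4d by 0.15 ± 0.03. The dopamine receptors were not called, Drd1 at -0.27 ± 0.11 and Drd2 at -0.71 ± 0.38, nor was the phosphodiesterase Pde10a (-0.15 ± 0.12, adjusted p = 0.459).

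Neuropeptide genes were called mainly as lower. Of 24 tested, 12 were lower and 1 higher (54.2% called, against 14.7% of all genes), with a median of -0.21; with the L token, 4 were lower and 0 higher. Penk, the enkephalin precursor, was at 14.4 to 23.7 CPM in Q175 cortices (median 19.1) and 30.7 to 63.9 CPM in WT cortices (median 44.5), less than the lowest WT library in all 8 Q175 libraries (log2 difference -1.24 ± 0.17, adjusted p = 0.000242). Npy, the precursor of neuropeptide Y made by a class of interneurons, was at 44.6 to 51.1 CPM in Q175 cortices (median 47) and 52.5 to 63.1 CPM in WT cortices (median 57.2), with a log2 difference of -0.28 ± 0.04 (adjusted p = 4.87e-05). Sst, the somatostatin precursor, was at 87.1 to 116 CPM in Q175 cortices (median 97.2) and 109 to 133 CPM in WT cortices (median 114), overlapping at its edges (log2 difference -0.25 ± 0.04, adjusted p = 0.000565). Chgb, a granin of dense-core vesicles, was at 341 to 368 CPM in Q175 cortices (median 357) and 375 to 437 CPM in WT cortices (median 414), without overlap (log2 difference -0.20 ± 0.03, adjusted p = 7.65e-05). Also lower were Cartpt (-0.46 ± 0.10), Nmb (-0.44 ± 0.09), Nppc (-0.36 ± 0.10) and Pdyn, the dynorphin precursor (-0.22 ± 0.05). Adcyap1, which encodes the peptide PACAP, was the 1 listed gene that was higher (log2 difference 0.28 ± 0.05, adjusted p = 0.00141).

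The promoters of Sst and Chgb hold the palindrome known as the cyclic AMP response element, and so does that of Cbx8, a Polycomb gene described below that was higher. Of 168 named genes with a promoter sequence, 6 hold it in any of their promoters. The others are Htt and Kif5c, both lower, and the granin Scg2 (-0.08 ± 0.04, not called). Thus 4 of the 6 genes were lower and 1 higher. Genes were named with their differences known, largely for a small p or a large difference, and 162 of 183 named genes were called. That most of the 6 were called is therefore fixed by that choice and is not a result about the palindrome. The 3 sequences are shown because the same 8 letters stand near the start of genes that differed in both directions. Each sequence runs from 250 bases before to 50 bases after the start of transcription on the gene's own strand, from RefSeq on build GRCm38.p6, with the match in capitals; the places are chr16:23890795-23891094 (minus strand), chr2:132781392-132781691 (plus strand) and chr11:119040864-119041163 (minus strand).
Sst: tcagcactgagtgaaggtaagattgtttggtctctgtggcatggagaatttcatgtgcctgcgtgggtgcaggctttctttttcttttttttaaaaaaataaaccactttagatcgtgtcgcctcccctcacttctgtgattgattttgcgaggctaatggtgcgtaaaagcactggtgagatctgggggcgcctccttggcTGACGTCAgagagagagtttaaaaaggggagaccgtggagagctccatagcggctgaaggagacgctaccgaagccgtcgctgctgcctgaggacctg
Chgb: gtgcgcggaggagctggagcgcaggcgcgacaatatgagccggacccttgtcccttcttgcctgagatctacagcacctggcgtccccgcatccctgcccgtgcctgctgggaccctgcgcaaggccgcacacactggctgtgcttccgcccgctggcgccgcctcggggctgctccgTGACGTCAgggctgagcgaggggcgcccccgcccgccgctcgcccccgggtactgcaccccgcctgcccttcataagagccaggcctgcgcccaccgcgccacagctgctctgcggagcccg
Cbx8: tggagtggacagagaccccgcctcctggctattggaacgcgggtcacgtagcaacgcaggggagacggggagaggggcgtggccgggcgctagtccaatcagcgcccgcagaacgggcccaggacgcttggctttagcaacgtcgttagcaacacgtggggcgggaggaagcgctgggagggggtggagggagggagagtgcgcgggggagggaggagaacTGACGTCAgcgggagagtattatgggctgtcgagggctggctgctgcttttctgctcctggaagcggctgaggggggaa
The first letter of the match lies at −48 in Sst, −72 in Chgb and −29 in Cbx8, counted from the start site. Letters TGACGTCA, which read the same on both strands, were found in 3.4% of 824 promoters of genes called higher, in 2.03% of 986 promoters of genes called lower, and in 2.93% of 12110 promoters of all tested genes. Over all 27025 promoters in the table the share was 1.78%. These shares count 1 promoter for each gene, whereas the 6 of 168 above count a match in any promoter of the gene. A match is a description of these letters and says nothing of whether a factor binds there.

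Among 47 tested receptors for peptides and monoamines, 10 were lower and 4 higher (with the L token, 5 and 1). The share called was 29.8%, against 14.7% of all genes. The kappa opioid receptor Oprk1 differed by -0.71 ± 0.17 (SE) with an adjusted p of 0.0104, the neuropeptide Y receptor Npy2r by -0.51 ± 0.16, the serotonin receptor Htr6 by -0.40 ± 0.12 and the histamine receptor Hrh3 by -0.34 ± 0.05. The 4 that were higher were the serotonin receptor Htr5a (0.23 ± 0.04), the neurotensin receptor Ntsr1 (0.28 ± 0.06) and the nicotinic subunits Chrna4 (0.15) and Chrnb2 (0.11).

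Markers of striatal projection neurons were also measured, because striatum lies below the dissected cortex and shares several of these genes. Of 21 tested, 6 were lower and 1 higher (33.3% called, against 14.7% of all genes), with a median of -0.27 (3 lower and 0 higher with the L token). Scn4b, a sodium channel subunit, was at 69.4 to 98.5 CPM in Q175 cortices (median 79) and 102 to 128 CPM in WT cortices (median 114), without overlap (log2 difference -0.53 ± 0.05, adjusted p = 5.25e-07). The other 5 were Penk, Ppp1r1b, Rasd2, Pdyn and Sh3rf2 (-1.07 ± 0.34, adjusted p = 0.0453). Several defining striatal genes were not called. The adenosine receptor Adora2a was at 2.97 ± 1.1 CPM in Q175 and 4.05 ± 1.96 CPM in WT (SD, n = 8 each), and the G protein regulator Rgs9 at 13.3 ± 2.81 CPM in Q175 and 15 ± 4.25 CPM in WT. The summed level of the list was 635 to 781 CPM in Q175 libraries (median 662) and 751 to 958 CPM in WT libraries (median 801), and the part of striatal tissue in the lower level of Penk, Ppp1r1b and Scn4b was not tested.

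Ion channel and synapse genes were called in part, mainly as lower. Among potassium channels and their partners, 17 of 52 were lower and 1 higher (34.6% called), with a median of -0.08 (7 lower with the L token). Kcnh4, a voltage-gated channel of the EAG family, was at 14.4 to 20.0 CPM in Q175 cortices (median 16.9) and 23 to 33 CPM in WT cortices (median 29.5), with a log2 difference of -0.73 ± 0.08 (adjusted p = 1.08e-05). Kcnip2, a partner of A-type channels, was at 81 to 102 CPM in Q175 cortices (median 93.8) and 115 to 132 CPM in WT cortices (median 122), with a log2 difference of -0.40 ± 0.04 (adjusted p = 1.87e-06). The fast delayed rectifier Kcnc1 differed by -0.25 ± 0.04. These 3 genes did not overlap between groups. Kcnt2, a sodium-activated channel, was the 1 that was higher (0.13 ± 0.03, adjusted p = 0.013).

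Of 30 sodium, calcium and HCN channel genes, 5 were lower and 1 higher, a share of 20.0% that is near the 14.7% of all genes. Scn4b was the most changed, followed by the auxiliary subunit Cacng3 (92 to 102 CPM in Q175 and 103 to 118 CPM in WT, -0.22 ± 0.03). Scn3a, a sodium channel alpha subunit, was the 1 that was higher (0.17 ± 0.06).

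Of 37 genes for glutamate receptors and their partners, 8 were lower and 1 higher (24.3% called; 5 and 0 with the L token). Beside Gsg1l, the metabotropic receptor Grm3 was at 44.7 to 53 CPM in Q175 and 54.7 to 61.7 CPM in WT (log2 difference -0.24 ± 0.03), and Grm4 differed by -0.38 ± 0.08. The NMDA receptor subunit Grin2c was at 29.6 to 40.1 CPM in Q175 and 40.6 to 48.5 CPM in WT (-0.34 ± 0.05). Dlg4, the main scaffold of excitatory synapses, was at 499.6 to 556 CPM in Q175 and 558 to 634 CPM in WT (-0.17 ± 0.03). The AMPA receptor subunits Gria1 and Gria2 and the NMDA receptor subunit Grin1 were not called, at -0.01 ± 0.04, 0.04 ± 0.03 and -0.11 ± 0.05. In the GABA list, 5 of 19 genes were lower and 1 higher (31.6% called; 2 and 0 with the L token). Gabrd led that list.

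At the sending side of the synapse, 11 of 26 genes of vesicles and release were lower and 2 higher (50% called), with a median of -0.11 (4 lower with the L token). Cplx2, a complexin that clamps the fusion machinery, was at 871 to 969 CPM in Q175 cortices (median 927) and 1082 to 1214 CPM in WT cortices (median 1117), with a log2 difference of -0.30 ± 0.03 (adjusted p = 5.46e-07). Vamp1, a vesicle SNARE, differed by -0.31 ± 0.05, the plasma membrane SNARE Snap25 by -0.18 ± 0.04 and the calcium sensor Syt7 by -0.16 ± 0.03. Syt4 and the vesicle protein Sv2a were higher, by 0.13 ± 0.03 and 0.10 ± 0.02.

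Astrocyte markers were mostly lower. Of 18 tested, 13 were lower and 1 higher (77.8% called, against 14.7% of all genes), with a median of -0.20 (11 lower and 0 higher with the L token). The summed level of the 18 markers was 7807 to 8848 CPM in Q175 libraries (median 8349) and 9269 to 10300.0 CPM in WT libraries (median 9908), so that the groups did not overlap. Ndrg2, an astrocyte-enriched protein, was at 511 ± 24.9 CPM in Q175 and 637 ± 27.7 CPM in WT (SD, n = 8 each), without overlap (log2 difference -0.32 ± 0.03, adjusted p = 1.17e-07). Mfge8, a secreted bridging molecule, was at 90.9 to 114 CPM in Q175 cortices (median 103) and 123 to 154 CPM in WT cortices (median 137), with a log2 difference of -0.41 ± 0.04 (adjusted p = 5.25e-07). Aldoc, the aldolase of astrocytes, differed by -0.30 ± 0.03, the glutamate transporters Slc1a2 and Slc1a3 by -0.25 ± 0.04 and -0.18 ± 0.04, glutamine synthetase (Glul) by -0.28 ± 0.04 and Aldh1l1 by -0.27 ± 0.03. The water channel Aqp4 (0.04 ± 0.06) and the filament gene Gfap (0.00 ± 0.08) were not called, and the calcium-binding S100b was higher (0.13 ± 0.03).

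Of 14 markers of the upper cortical layers, 7 were lower and 1 higher (57.1% called), with a median of -0.19 (4 lower with the L token), whereas of 15 deep-layer markers 1 was lower (6.67% called), with a median of 0.01. Wfs1, an endoplasmic reticulum protein, was at 43.2 to 60.2 CPM in Q175 cortices (median 54.3) and 69.7 to 103 CPM in WT cortices (median 81.4), with a log2 difference of -0.67 ± 0.09 (adjusted p = 0.000169). Lamp5, a membrane protein of dendrites, was at 129.8 to 160.1 CPM in Q175 cortices (median 151) and 189.6 to 247 CPM in WT cortices (median 219), with a log2 difference of -0.55 ± 0.06 (adjusted p = 7.89e-06). Nptx2, a secreted pentraxin, was at 16.6 to 24.9 CPM in Q175 cortices (median 22.1) and 27.4 to 36.1 CPM in WT cortices (median 32.5), with a log2 difference of -0.57 ± 0.09 (adjusted p = 0.000428). None of these 3 genes overlapped between the groups. The transcription factors Cux1 and Cux2 differed by -0.19 ± 0.03 and -0.19 ± 0.05. The deep-layer gene that was lower was Cplx3, a complexin (-0.30 ± 0.05), while Tle4 and Bcl11b were at 0.06 ± 0.03 and -0.12 ± 0.07. No test set the 2 lists against each other. Rgs16 (-0.37 ± 0.08) and Adarb1 (-0.18 ± 0.03) were lower among 11 thalamic markers, and the summed level of those markers was 302 to 319 CPM in Q175 libraries (median 310.2) and 328 to 359.6 CPM in WT libraries (median 336), without overlap. The part of neighbouring tissue in these levels was not tested.

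Interneuron markers were lower in 7 of 22 genes and higher in none (31.8% called), with a median of -0.15 (2 lower with the L token). Beside Npy and Sst, these included the transcription factor Dlx1 (28.7 to 35.1 CPM in Q175 and 34.3 to 41.8 CPM in WT, -0.21 ± 0.04), Vip (-0.18 ± 0.04), Cck (-0.15 ± 0.05) and the GABA-synthesising enzyme Gad1 (-0.11 ± 0.03). Pvalb, the calcium buffer of fast-spiking interneurons, was at 55.7 ± 3.63 CPM in Q175 and 59 ± 7.87 CPM in WT, a difference of -0.08 ± 0.07 that was not called (adjusted p = 0.49). Among 12 markers of excitatory neurons, 4 were lower and 1 higher, with Camk2a and Nrgn (-0.29 ± 0.08) among the lower. The vesicular zinc transporter Slc30a3 was at 72.1 to 87.8 CPM in Q175 and 89.3 to 103 CPM in WT (log2 difference -0.33 ± 0.04), and the vesicular glutamate transporter Slc17a7 at 883 to 963 CPM in Q175 and 968 to 1092 CPM in WT (-0.15 ± 0.02).

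Markers of the other cell types were called at shares on both sides of the 14.7% of all genes. Of 18 oligodendrocyte markers, 4 were called (22.2%): Mog (51.5 to 61.9 CPM in Q175 and 43.5 to 55.6 CPM in WT, 0.21 ± 0.04), Cnp (0.14 ± 0.03) and Myrf (0.15 ± 0.05) were higher and Mobp was lower (-0.16 ± 0.05). Their summed level was 4568 to 5285 CPM in Q175 libraries (median 4864) and 4752 to 5609 CPM in WT libraries (median 4989). Among 20 microglial markers (5.0% called), Ctss, a lysosomal protease, was higher (64.3 to 85.2 CPM in Q175 and 64 to 79.5 CPM in WT, log2 difference 0.15 ± 0.05, adjusted p = 0.0493). The sum was 562 to 669.7 CPM in Q175 libraries (median 624) and 605 to 656.05 CPM in WT libraries (median 621). None of 16 vessel markers, 10 markers of meninges and 5 of blood was called, and the sum of the vessel markers was 633 to 723 CPM in Q175 libraries (median 682) and 643.8 to 732 CPM in WT libraries (median 681). None of the 12 choroid plexus markers was called, with a median difference of -1.47 and with the highest sums in the 3 WT libraries named above.

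**Figure D3:**
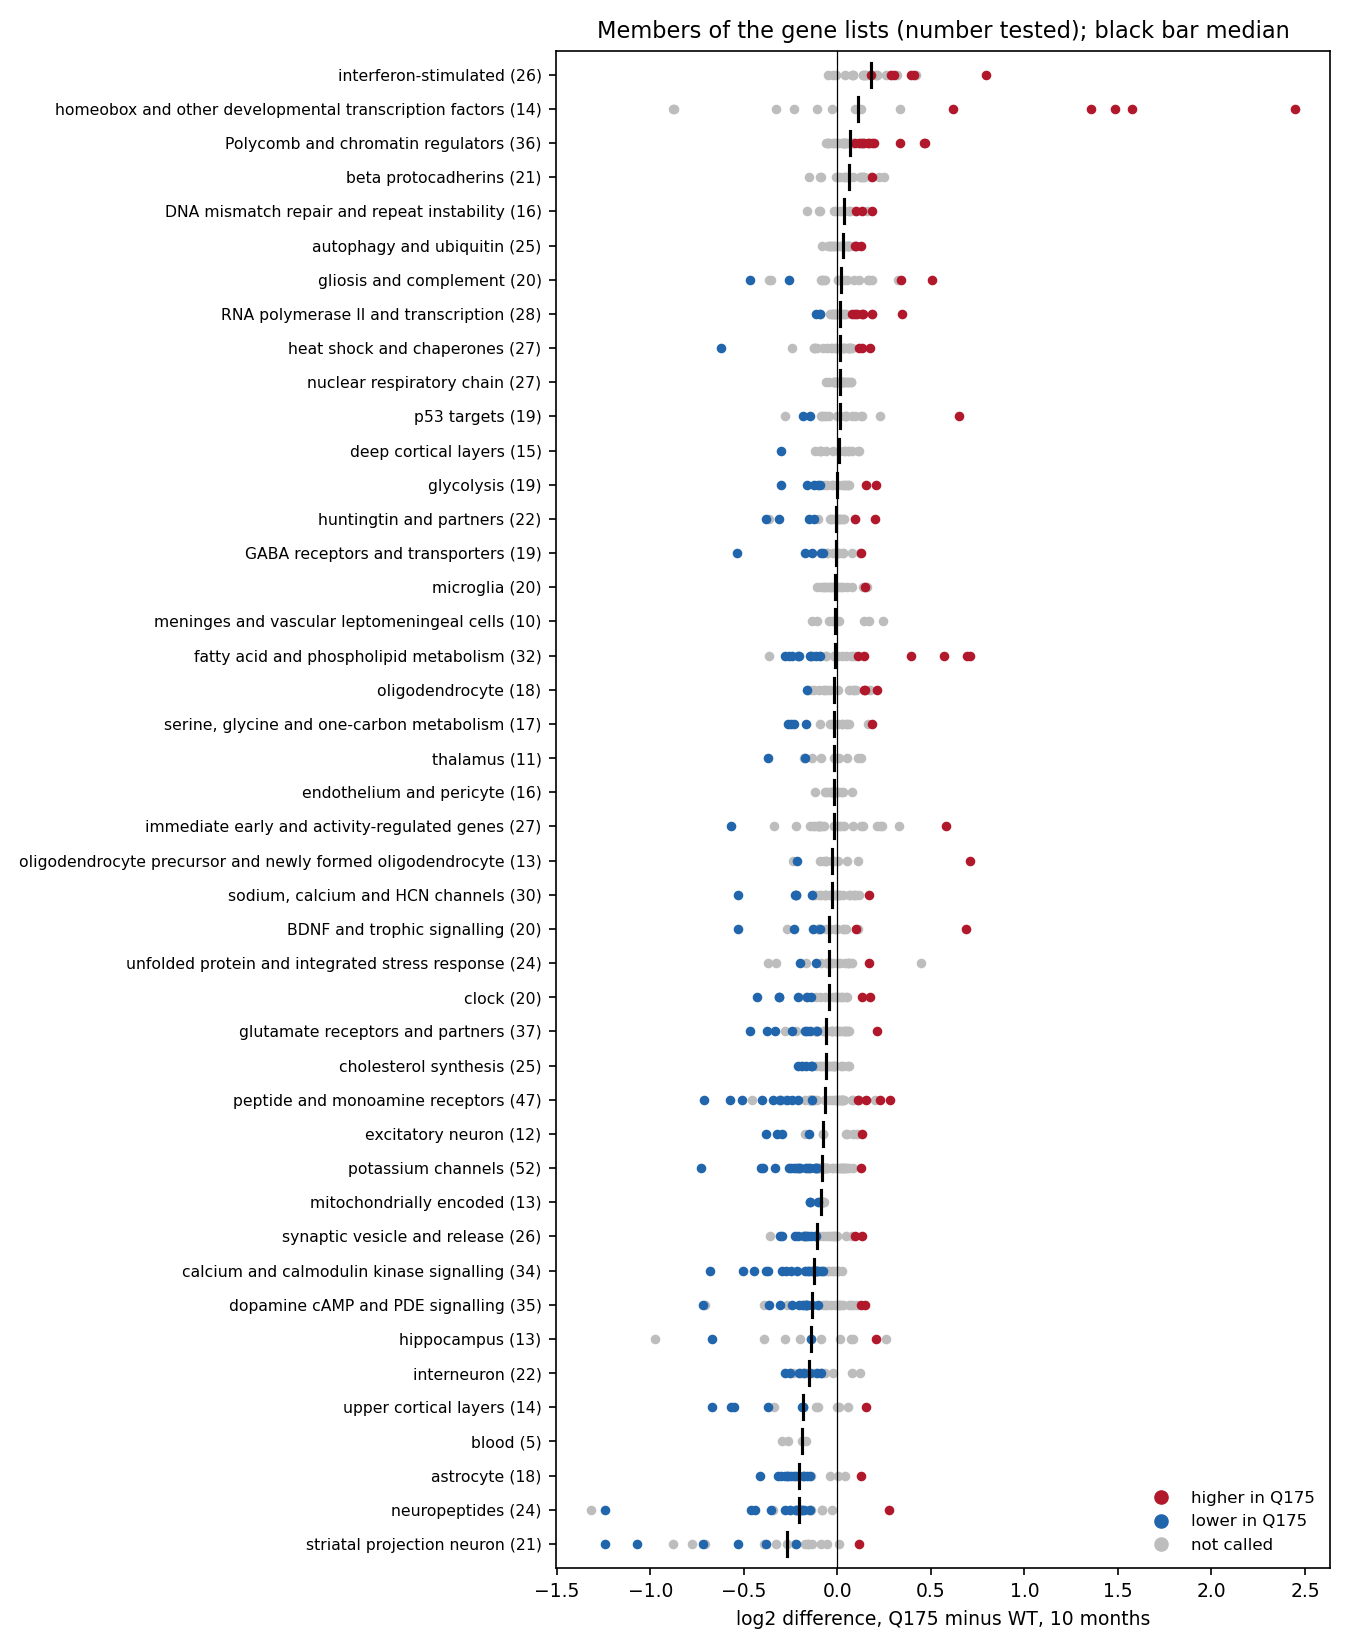
Log2 differences, Q175 minus WT at 10 months, of the tested genes of 44 lists (1 row a list, with the number tested), ordered by the list's median (black bar). Red points are genes called higher in Q175, blue points genes called lower and grey points not called; the choroid plexus list, with a median of -1.47 and no gene called, is left out. The calcium and calmodulin genes and the astrocyte markers lie mostly left of 0, with medians of -0.13 and -0.20.

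Lipid genes were called in both directions. Of 32 genes of fatty acid and phospholipid metabolism, 6 were higher and 9 lower (46.9% called, against 14.7% of all genes; 5 and 5 with the L token). Beside Enpp6, Chdh and Abca8a, the higher genes included the lipid phosphatase Plpp2 (0.39 ± 0.10) and the lipid exporter Abca1 (0.14 ± 0.05). Plpp3, an astrocytic relative of Plpp2, was at 182 to 224 CPM in Q175 cortices (median 203) and 237 to 256 CPM in WT cortices (median 248), with a log2 difference of -0.28 ± 0.03 (adjusted p = 1.77e-06). Clusterin, Clu, was at 526.2 to 597 CPM in Q175 cortices (median 547) and 632 to 694 CPM in WT cortices (median 659), with a log2 difference of -0.24 ± 0.03 (adjusted p = 2.59e-06), and apolipoprotein E, Apoe, differed by -0.26 ± 0.05. The desaturases Fads1 and Fads2 were lower, with differences of -0.21 ± 0.03 and -0.21 ± 0.02. Of 25 genes of cholesterol synthesis, 5 were lower and none higher (20.0% called), the one furthest from 0 being Nsdhl at -0.21 ± 0.05; with the L token, 1 was lower.

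Chromatin and transcription genes were called mainly as higher. Of 36 Polycomb and chromatin regulators, 11 were higher and none lower (30.6% called, against 14.7% of all genes), with a median of 0.07; with the L token, 3 were higher. Polycomb complexes keep developmental genes silent. Cbx8, a chromodomain subunit of Polycomb complex 1, was at 9.57 to 12.5 CPM in Q175 cortices (median 11.1) and 6.6 to 9.23 CPM in WT cortices (median 8.05), with a log2 difference of 0.47 ± 0.07 (adjusted p = 7e-05). Its relative Cbx2 was at 3.31 to 5.31 CPM in Q175 cortices (median 4.17) and 3.08 to 3.98 CPM in WT cortices (median 3.16), with a log2 difference of 0.34 ± 0.09 (adjusted p = 0.0163). The others of the list that were higher included the demethylases Tet1 (0.20 ± 0.06) and Tet2 (0.18 ± 0.04) and the acetyltransferase Ep300 (0.12 ± 0.03).

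Homeobox and other developmental transcription factors are mostly silent in adult cortex, and 14 of 36 listed genes had enough counts to test. Of these, 5 were higher and none lower (35.7% called; 4 higher with the L token). A low gene could enter the test through the group in which it was higher. Beside Onecut2 and Pax2, Shox2 was at 0.336 to 0.663 CPM in Q175 cortices (median 0.531) and 0.0629 to 0.311 CPM in WT cortices (median 0.204), with a log2 difference of 1.48 ± 0.26 (adjusted p = 0.000439). Onecut1 was at 0.173 to 1.07 CPM in Q175 cortices (median 0.694) and 0.0716 to 0.452 CPM in WT cortices (median 0.196), overlapping (log2 difference 1.58 ± 0.28, adjusted p = 0.00061). En2, an engrailed homeobox factor, was at 0.969 to 1.86 CPM in Q175 cortices (median 1.07) and 0.587 to 1.03 CPM in WT cortices (median 0.731), overlapping (log2 difference 0.62 ± 0.16, adjusted p = 0.0106). The other 9 tested factors, Pax6 (0.13 ± 0.07) and Otx2 (-0.87 ± 0.68) among them, were not called.

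Of 28 genes of RNA polymerase II and general transcription, 7 were higher and 2 lower (32.1% called; 1 and 0 with the L token). Polr2a was followed by Polr2d (0.19 ± 0.05) and the mediator subunit Med13 (0.14 ± 0.03). Polr2e (-0.11 ± 0.03) and the elongation kinase Cdk9 (-0.09 ± 0.03) were lower.

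Interferon-stimulated genes were higher in 6 of 26 and lower in none (23.1% called, against 14.7% of all genes), with a median of 0.18, and none was called with the L token. Ifit2, an antiviral effector, was at 13.1 to 15.6 CPM in Q175 cortices (median 14.6) and 10.2 to 12.9 CPM in WT cortices (median 11.9), without overlap (log2 difference 0.30 ± 0.05, adjusted p = 0.000309). Ifi44 was at 0.885 to 1.23 CPM in Q175 cortices (median 1.02) and 0.391 to 0.997 CPM in WT cortices (median 0.563), with a log2 difference of 0.80 ± 0.16 (adjusted p = 0.0016), and Oasl2 differed by 0.41 ± 0.13. In the gliosis and complement list of 20 genes (20.0% called), Serpina3n and the filament gene Vim (26.7 to 34.9 CPM in Q175 and 23 to 26.7 CPM in WT, 0.34 ± 0.05) were higher, and Apoe and C4a (-0.47 ± 0.14) were lower. C4a lies beside a near-identical copy, C4b, and reads of the 2 can be shared.

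Clock genes were lower in 6 and higher in 2 of 20 tested (40.0% called; 2 and 0 with the L token). The clock output factor Dbp was at 45.2 to 63 CPM in Q175 cortices (median 54.9) and 60.3 to 88.3 CPM in WT cortices (median 71.9), with a log2 difference of -0.43 ± 0.05 (adjusted p = 2.76e-05). Per3 differed by -0.31 ± 0.06 and Ciart by -0.31 ± 0.06, and the repressor Cry1 was higher (0.18 ± 0.06).

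The lists of activity, stress, mitochondrial and repair genes had shares called from 0% to 23.1%, on both sides of the 14.7% of all genes. Of 27 immediate early and activity-regulated genes (7.41% called), Nptx2 was lower and Fosb higher (13.4 to 23.1 CPM in Q175 and 8.55 to 16.6 CPM in WT, log2 difference 0.58 ± 0.11, adjusted p = 0.00251), while Fos (0.33 ± 0.23), Arc (-0.10 ± 0.27) and Bdnf (-0.10 ± 0.08) were not called. Among 27 chaperones (14.8% called), Hspa8 (0.18 ± 0.04), Hsp90ab1 (0.13 ± 0.03) and Hsp90aa1 (0.11 ± 0.03) were higher and Hspa1b, which has a near-identical copy in Hspa1a, was lower (-0.62 ± 0.13). Of 24 genes of the unfolded protein response (12.5% called), Ern1 (0.17 ± 0.06) was higher and Ddit3 (-0.20 ± 0.05) and Atf6 (-0.11 ± 0.03) lower. None of 27 nuclear genes of the respiratory chain was called, and 3 of 13 mitochondrially encoded genes were lower (23.1%), mt-Nd2 among them at -0.15 ± 0.03. Of 16 genes of mismatch repair and repeat instability, a process that can lengthen CAG repeats in brain, 3 were higher (18.8% called). They were Mlh3 (26.8 to 29.7 CPM in Q175 and 23.2 to 26.9 CPM in WT, 0.19 ± 0.04), Rrm2b (0.13 ± 0.04) and Pcna (0.10 ± 0.03), and Msh3 was at 0.03 ± 0.04 (adjusted p = 0.663).

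The same contrast at 2 months, in other mice, tested whether these differences were present early. No gene of 16479 was called at 2 months (0%) by edgeR, with 849 at an unadjusted p under 0.05, and DESeq2 called 5. The smallest p was that of Penk, at 81.1 ± 12.9 CPM in Q175 and 117 ± 13.6 CPM in WT (SD, n = 8 each), a log2 difference of -0.53 ± 0.10 (SE) with an adjusted p of 0.319. Htt differed by -0.25 ± 0.08, about as at 10 months, with a difference between ages of -0.05 ± 0.09 (adjusted p = 0.84). The spread between libraries was wider at 2 months, with a biological coefficient of variation of 0.107, against 0.07 at 10 months, and 1 WT female stood apart, with a median correlation of 0.978 with the other 15 libraries, against 0.989 to 0.992 for those. Without it, a choice made after the data were seen, 1 gene was called at 2 months. Of the genes higher at 10 months, 68.5% were positive at 2 months, and of those lower at 10 months 60.4% were negative, against 50.1% positive among all genes. The median log2 differences of these 2 sets at 2 months were small, at 0.036 and -0.021. Shares and medians include the WT female that stood apart and were not computed without it, so its part in them was not tested.

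The difference between ages was tested itself, as the Q175 minus WT difference at 10 months less that at 2 months. It was called in 388 of 16953 genes (2.29%), 95 more positive (0.56%) and 293 more negative (1.73%). Without the WT female of 2 months that stood apart, 554 were called, 159 of them more positive. Without the 3 WT libraries of 10 months highest in choroid plexus RNA, 262 were called, 46 of them more positive. Plk5 had 18.1 ± 2.38 CPM in Q175 and 20.1 ± 3.41 CPM in WT at 2 months, a difference of -0.14 ± 0.10, and the age difference was -1.76 ± 0.15 (adjusted p = 1.55e-08). Onecut2 had 4.61 ± 0.512 CPM in Q175 and 4.48 ± 0.907 CPM in WT at 2 months, and its age difference was 1.32 ± 0.14 (adjusted p = 5.64e-07). Both genes thus had 2-month group means within 1 SD of each other.

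The others with the smallest p were Gpr153 (-0.79 ± 0.08), Hipk4 (-0.67 ± 0.07), Dgat2l6 (-1.39 ± 0.16) and Myh7 (-1.28 ± 0.15) among the negative, and Serpina3n (0.73 ± 0.09), Dpysl3 (0.36 ± 0.05) and Klhl1, a kelch-like actin-binding protein (1.0 ± 0.15), among the positive. Klhl1 was lower on average in Q175 than in WT at 2 months, not past the threshold, at 3.25 ± 0.692 CPM in Q175 and 4.1 ± 0.466 CPM in WT, and higher at 10 months, at 2.45 ± 0.282 CPM in Q175 and 1.54 ± 0.21 CPM in WT. In lists, 8 of the 34 calcium and calmodulin genes and 5 of the 18 astrocyte markers were called for the age difference, against 2.29% of all genes. Other lists with at least 4 such genes were fatty acid and phospholipid metabolism (7 of 32), potassium channels (5 of 52), vesicles and release (4 of 26), glutamate receptors (4 of 37) and upper-layer markers (4 of 14). None of the 22 interneuron markers was called. Scn4b, Npy and Sst had age differences of -0.19 ± 0.10, -0.13 ± 0.10 and -0.06 ± 0.12, none of them called.

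**Figure D4:**
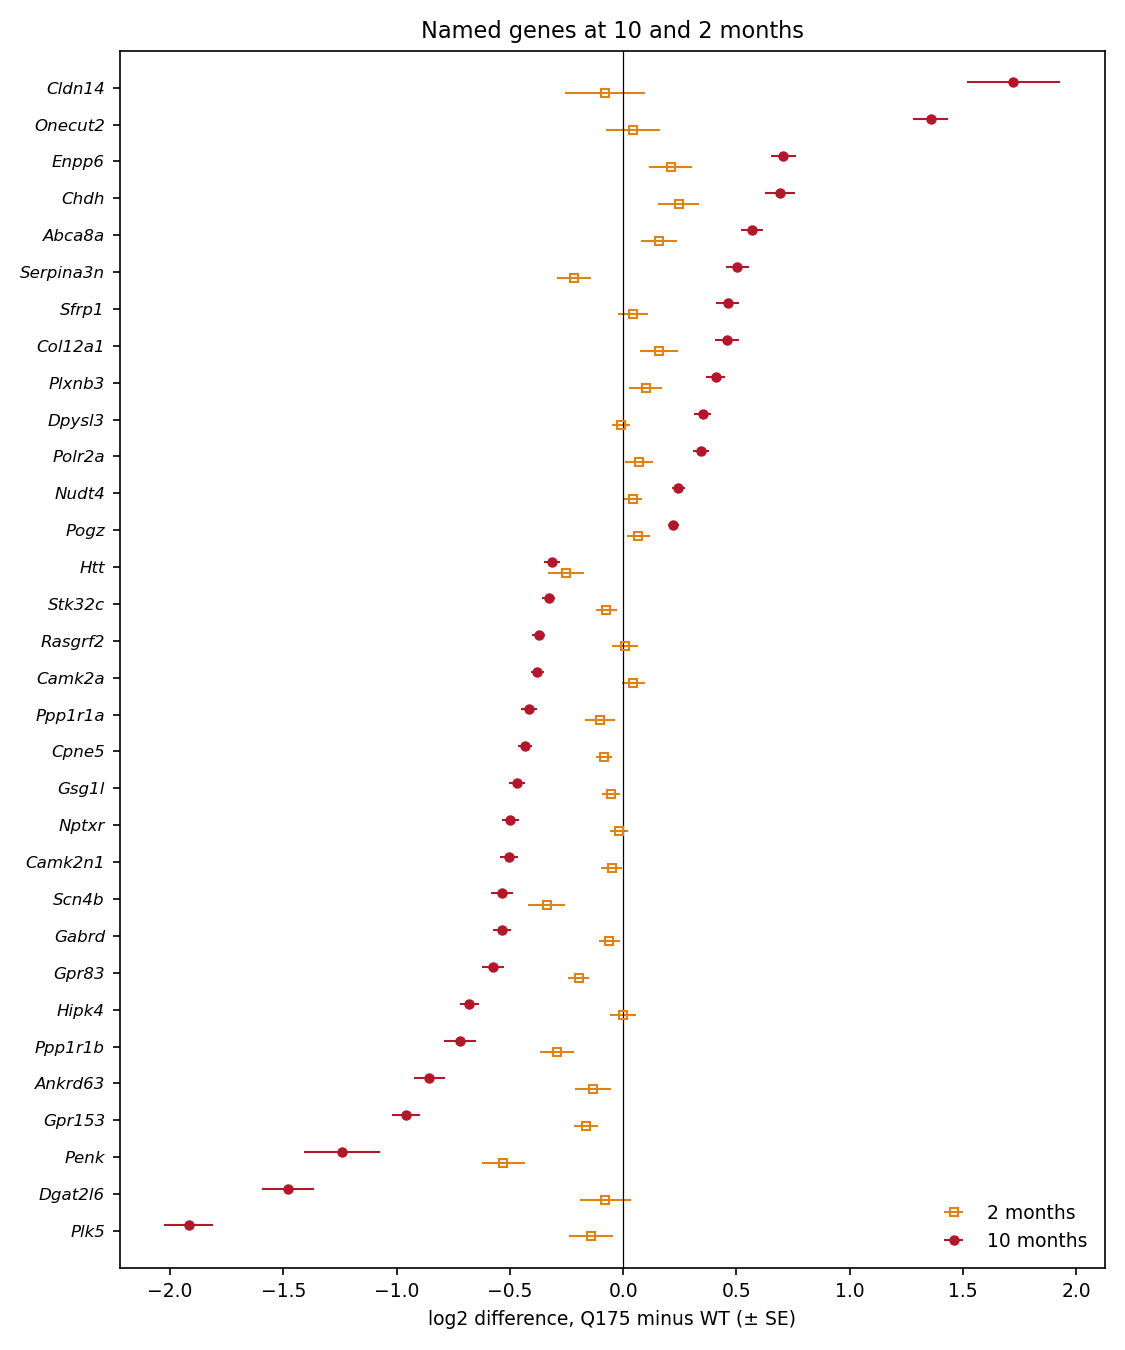
Log2 difference, Q175 minus WT, with its SE, of 32 genes at 2 months (open squares) and at 10 months (filled circles), each from 8 libraries a genotype; Pax2 was not tested at 2 months. Each gene drawn at both ages lies closer to 0 at 2 months than at 10, and Htt lies at -0.25 at 2 months and -0.31 at 10 months. The genes were chosen with their 10-month difference known, so that lying closer to 0 at 2 months is not a result.

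At 6 months, 6509 of 16742 genes were called (38.9%), 3326 higher (19.9%) and 3183 lower (19%). The library names of Q175 and of WT come from different series at that age, so that library series and genotype cannot be told apart. Plk5 then differed by -0.37 ± 0.05, Onecut2 by 0.16 ± 0.10 and Htt by -0.38 ± 0.05.

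Females and males were compared through the interaction of sex and genotype at 10 months. No gene was called (0%) in edgeR or DESeq2, with 550 at an unadjusted p under 0.05 in edgeR. Onecut2 was at 14.6 ± 0.998 CPM in Q175 females and 5.14 ± 0.65 CPM in WT females, and at 12 ± 1.75 CPM in Q175 males and 5.18 ± 0.222 CPM in WT males (SD, n = 4 each). Its interaction term, females minus males, was 0.29 ± 0.14 on the log2 scale. Plk5 was at 4.43 ± 0.503 CPM in Q175 females and 18.7 ± 2.79 CPM in WT females, and at 5.58 ± 1.32 CPM in Q175 males and 18.9 ± 2.09 CPM in WT males. Both genes thus differed between genotypes within each sex by more than their spread. As they were chosen for a small p in these same libraries, that is not a separate result.

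The other alleles of 10 months were set beside Q175 for 6 genes with called differences and for 2 in which another allele had the higher mean. The genes were chosen with their Q175 difference known, so that a Q175 mean at the end of the range is not a result. The alleles share the 8 WT libraries, so their levels are set side by side without a test. Mean CPM of Chdh was 6.17 ± 0.845 in WT, 6.77 ± 0.581 in Q20, 7.21 ± 0.884 in Q80, 7.56 ± 0.835 in Q92, 7.93 ± 1.17 in Q111, 9.48 ± 1.55 in Q140 and 9.97 ± 0.325 in Q175 (SD, n = 8 each), a stepwise order of means from Q20 to Q175. Enpp6 was at 4.75 ± 0.226 in WT, 4.48 ± 0.937 in Q20, 4.71 ± 0.672 in Q80, 5.99 ± 0.707 in Q92, 6.22 ± 1.51 in Q111, 6.83 ± 0.877 in Q140 and 7.77 ± 0.501 in Q175. For Plk5 the means were 18.8 ± 2.29 in WT, 16.3 ± 3.12 in Q20, 16 ± 5.12 in Q80, 16.1 ± 1.57 in Q92, 15.6 ± 4.96 in Q111, 10.9 ± 2.29 in Q140 and 5.0 ± 1.11 in Q175. The Q140 mean of Plk5 lay between those of the shorter alleles and that of Q175.

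Onecut2, by contrast, was at 5.16 ± 0.451 in WT, 5.33 ± 0.745 in Q20, 5.66 ± 1.31 in Q80, 5.75 ± 0.594 in Q92, 5.2 ± 0.918 in Q111, 5.63 ± 1.02 in Q140 and 13.3 ± 1.93 in Q175, so that the Q140 mean differed from the WT mean by less than the SD of the Q140 libraries. Pax2 was at 0.21 ± 0.12 in WT, 0.191 ± 0.0921 in Q20, 0.215 ± 0.148 in Q80, 0.22 ± 0.0981 in Q92, 0.236 ± 0.0857 in Q111, 0.182 ± 0.086 in Q140 and 1.17 ± 0.522 in Q175, again with Q140 near WT. For Htt itself the means were 196 ± 7.52 in WT, 199 ± 21.6 in Q20, 219 ± 15.9 in Q80, 203 ± 21.1 in Q92, 194 ± 22.1 in Q111, 166 ± 28.5 in Q140 and 158 ± 11.1 in Q175. Another allele had a higher mean than Q175 in some genes that were higher in Q175 than in WT, of which 2 are given. Shox2 was at 1.04 ± 1.78 CPM in Q140, with a median of 0.166, and at 0.52 ± 0.124 CPM in Q175. Fosb was at 19.6 ± 5.85 CPM in Q80, 19.5 ± 7.63 CPM in Q92 and 17.3 ± 3.38 CPM in Q175.

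**Figure D5:**
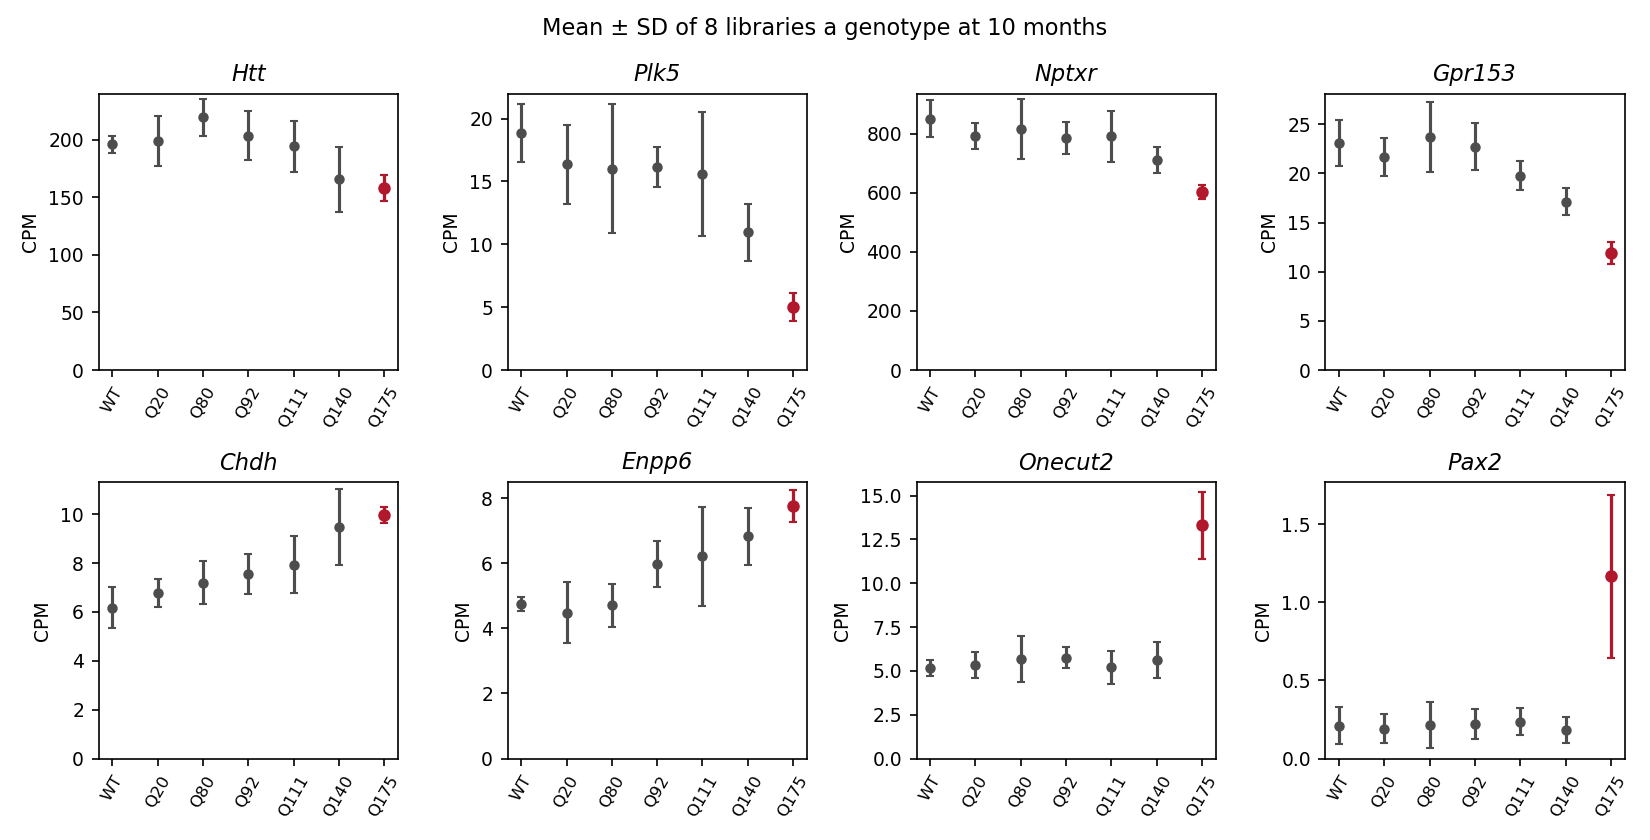
Mean and SD of CPM in 8 libraries a genotype at 10 months, from WT through the nominal repeat lengths to Q175 (red), for 8 genes. Chdh and Enpp6 have means that step up from Q20 to Q175, while Onecut2 lies between 5.2 and 5.75 CPM from Q20 to Q140 and at 13.3 CPM in Q175.

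Some properties of the called genes are given as a description. The genomic span of the gene had a median of 46.1 kb for genes higher in Q175, 21.4 kb for genes lower and 22.9 kb for all tested genes. The median share of G and C in the promoter was 60.7%, 61.7% and 60.7% in the same order. Within 5 Mb of Htt on chromosome 5, 26 of 116 tested genes were called (22.4%), against 16.3% over the whole chromosome. No test was made of these differences.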

How the data were processed

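Cortex RNA was selected for polyA tails and sequenced, per the labels' protocols. The authors deposited a table of estimated counts per gene, not all of them whole (17.7% of values), and FPKM values, which divide by library size and gene length. Base calls were made with CASAVA 1.8.2, per the submitters' processing notes; which aligner, counter or build was used is not stated by the labels or headers. Symbols and positions came from GENCODE M21, which paired 37607 of 39179 gene IDs with a symbol, and IDs without one held 0.32% of counts. Counts were rounded and tested with edgeR 4.0.16 (quasi-likelihood F test, TMM scaling, sex as a covariate, filter of 10 counts in the smaller group and 15 in all, Benjamini-Hochberg adjusted p of 0.05) in R 4.3.3. The SE of a log2 difference was derived from that test, as the size of the difference divided by the square root of its F statistic. Alternatives used DESeq2 1.42.0, its size factors, no filter, no sex term, a replicate block, the L token, all 56 libraries of the age, limma 3.58.1 on log2(FPKM + 0.1) or log2(FPKM + 1), and single libraries left out. The 56 pairs of libraries within the 2 groups differed by more than sampling noise (lowest chi-square per degree of freedom 3.89), so none was merged, and the sex genes matched the labels in all 16.

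Genes were named by a rule: the 15 with the smallest p each way, the 8 with the largest difference each way at a mean of 1 CPM or more, up to 5 members of each list, and 5 each way for the age difference. Other list members were named after their values were seen. Some genes that these rules name are not reported here. The lists and the libraries were chosen with earlier results of these data known.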

Additional observations from a re-analysis of the deposited data

Results flagged for a closer look

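In each group of 8, the highest and the lowest library were set against the others, and a library was picked out where its gap to the nearest of them was over 0.526 of the group's range. Of 400 groups of values looked at, 32 held such a library (8%), and chance flags about 1 in 20 groups. The values below are CPM.

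Among Q175 libraries of 10 months, male 4 was highest in 3 neuronal genes that were lower in Q175, Camkk2 in male 4 (236, next 219), Ppp1r1a in male 4 (48.4, next 44.5) and Slc30a3 in male 4 (87.8, next 77). Female 3 was highest in 3 genes of striatal projection neurons, Drd2 in female 3 (2.4, next 1.15), Ppp1r1b in female 3 (63, next 52.5) and Scn4b in female 3 (98.5, next 82.9). The other highest Q175 libraries were Capn11 in male 2 (1.41, next 0.616), Cartpt in female 2 (4.18, next 3.2), En2 in female 4 (1.86, next 1.29), Kcnt2 in female 1 (51.7, next 48.1), Met in female 4 (10.1, next 8.43), Nudt4 in male 2 (236, next 219), Sspo in male 1 (8.61, next 5.13) and Vip in male 2 (43, next 38.8). The lowest Q175 libraries were Hsp90aa1 in male 1 (948, next 1032) and Htt in male 2 (133, next 156).

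Among WT libraries of 10 months, the highest were Itpka in female 4 (149.8, next 139), Met in male 3 (7.45, next 5.63), Pde10a in male 4 (119, next 84.1), Polr2e in male 1 (42.4, next 39.5), Snap25 in male 1 (3294, next 2971), Sst in male 1 (133, next 120.2), summed striatal projection neuron markers in male 4 (958, next 840.2) and summed microglia markers in male 2 (656.1, next 628). The lowest were Dgat2l6 in male 1 (1.67, next 2.17), Glul in male 3 (1485, next 1646), Ntsr1 in male 4 (6.67, next 8.37), Slc1a3 in male 1 (539) and Sspo in female 1 (1.2, next 1.93). The WT library highest in the summed striatal markers, male 4, was also the highest in Pde10a, a striatal phosphodiesterase. Among Q175 libraries of 2 months the highest were Onecut2 in female 1 (5.66, next 4.79), Dpysl3 in male 3 (54.9, next 52.1) and Myh7 in male 2 (18.2, next 16.8).

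The Q175 minus WT difference itself differed between 10 and 2 months in 388 genes, by the tested difference of differences on the log2 scale. The 9 given here are from those with the smallest p each way, and other listed genes were called as well. The difference was more positive at 10 months in Onecut2 (1.32), Serpina3n (0.73), Dpysl3 (0.36) and Klhl1 (1.0), and more negative in Plk5 (-1.76), Gpr153 (-0.79), Hipk4 (-0.67), Dgat2l6 (-1.39) and Myh7 (-1.28). The adjusted p of these 9 lay between 1.55e-08 and 7.66e-05 in edgeR's quasi-likelihood test.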

How the results depend on the processing

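At 10 months, 2414 genes were called, 1065 higher and 1349 lower. With the L token as a term the counts were 650, 177 and 473, with 621 of the 650 among the 2414. With all 56 libraries of the age they were 1483 in all and 901 lower. Without the 3 WT libraries highest in choroid plexus RNA, an alternative chosen after seeing the data, they were 1507, 558 and 949, with fewer libraries in the fit. On log2(FPKM + 0.1), 1715 were higher and 903 lower, and on log2(FPKM + 1), 1709 and 903. Leaving out 1 library at a time gave 1967 to 2516 called, 819 to 1112 higher and 1146 to 1404 lower. DESeq2, its size factors, no filter and no sex term gave between 2061 and 2672. Of the 162 named genes called, 63 were not called with the L token, 39 with all 56 libraries, 31 without the 3 choroid plexus libraries, 14 on either FPKM scale, 11 with no filter and 6 with no sex term, and all 162 were called by DESeq2. Among them and the named genes that other fits called, none changed direction.

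At 2 months DESeq2 called 5 genes, 1 higher and 4 lower, and without WT female 2 (chosen after seeing the data) edgeR called 1, which was lower. The age difference was called in 388 genes, 95 of them more positive. DESeq2 gave 600 and 163, no filter 300 and 53, the fit without the 3 choroid plexus libraries 262 and 46, and that without the WT female of 2 months 554 and 159. The cause of these shifts was not tested.

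The labels number replicates within each genotype and sex. Deviations of same-numbered libraries correlated at −0.041 to 0.186, 4 of 8 pairs over 0.1. For differently numbered libraries of the same sex the range was −0.174 to 0.116. Of the 8 Q175 libraries, 4 were closest to the WT library of their own number. The main fit did not use the numbers, and whether they pair libraries was not tested beyond these values. With a replicate block, 2851 genes were called at 10 months, 1263 higher and 1588 lower, 0 at 2 months, and 305 for the age difference. Of the named genes, Capn11, Cck, Oasl2, Pde1b and Sh3rf2 were not called with the block and Grin1 was.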
